A study of Mus musculus with 18 samples.

Results

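Joins between a resected RAG-broken DNA end and telomere repeat made up 5764 of 30937 junctions (18.6%) in 12 libraries of v-abl-transformed mouse B cells. Each junction came from high-throughput genome-wide translocation sequencing (HTGTS), which reads outwards from a primer beside a known break, the bait, and records the sequence joined to it, the prey. A junction belonged to the class when its prey lay outside the recombination substrate, its prey bases held at least 3 exact telomere hexamers on either strand, and the bait had lost more than 50 bp from its coding end. The members were thus chosen by measured values, their repeat number and their bait loss. Within the members these values are described without a test. How often junctions met the criteria, and how often telomere-repeat events passed the bait-loss threshold, is compared between groups of libraries. The members were 40.4% of the 14251 junctions that met the repeat criterion. The other 8487 kept the bait end within 50 bp and are called near-end telomere joins. A further 3448 junctions lay in the genome with fewer than 3 exact hexamers in the prey and a bait loss over 50 bp. They are called other resected genome joins, and 503 of them held 2 exact hexamers.

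The cells are precursor B cells immortalised by the v-abl kinase, of mouse strain 129, and all 12 libraries carried an integrated pMX-INV substrate. This construct holds recombination signals at which the RAG nuclease cuts once v-abl is inhibited, leaving hairpin-sealed coding ends that normal cells open and join to each other. The genotypes were CtIP A/A DNA-PKcs -/-, DNA-PKcs -/-, CtIP A/A and wild type, each with 2 libraries from G2-arrested cells and 1 from G1-arrested cells. G2 cells received STI571, the v-abl kinase inhibitor, at 3 µM for 24 h and the CDK1 inhibitor RO3306 at 10 µM for 48 h. G1 cells received STI571 at 3 µM for 48 or 72 h. The labels do not say that libraries of a group came from separate cultures or cell lines. Genotype and cell line can therefore not be told apart, and p values measure only the spread between these libraries. CtIP starts the resection of broken ends, and A/A denotes a mutated allele of it. DNA-PKcs is the kinase that activates the Artemis nuclease for hairpin opening during classical end joining.

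Telomeres are long tandem arrays of a short repeat that end each chromosome, and bound proteins keep them from being joined as broken ends would be. The strand that runs towards the chromosome end is G-rich, so the array reads as the C-rich strand when it is followed from the chromosome end inwards. Shorter tracts of the same repeat lie inside chromosomes. In mouse cells DNA-PKcs is known both for end joining and for a part in protecting telomeres.

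An event is a set of lines whose bait end and next 12 read bases are identical, and a line is 1 junction in the deposited tables. In the 8 largest events the repeat began right after the last bait base and ran on without a break over the 36 bases compared, so those bases do not tell one telomere from another. Events found in 2 or more libraries included arrays with other bases ahead of or between the exact units, and 4 of these are shown because such bases make an event recognisable. Each is the consensus over the lines of the event as the read continues past the last bait base. Exact hexamer units are in capitals and all other bases in lower case. Offset means that 1 base lies between the bait and the repeat. In that array a later unit has a changed base, and the units stay in the same frame.
Bait loss of 110 bp, interrupted array: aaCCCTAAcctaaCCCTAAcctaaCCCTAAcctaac
Bait loss of 54 bp, 13 bases ahead of the array: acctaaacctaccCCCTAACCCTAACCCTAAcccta
Bait loss of 142 bp, run of a variant unit: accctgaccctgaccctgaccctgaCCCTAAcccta
Bait loss of 125 bp, offset array: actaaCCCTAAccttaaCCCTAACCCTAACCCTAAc
The prey read C-rich away from the bait in 5749 of 5764 member lines (99.7%) and G-rich in 15. The near-end telomere joins had 8461 C-rich lines (99.7%) and 26 G-rich lines. The rule accepted either strand, so the strand was not fixed by the choice of members. By events, the C-rich share was 98.8% ± 0.754 in the members and 97.5% ± 3.15 in the near-end telomere joins (SD, n = 6 libraries, adjusted p = 0.683, exact sign-flip permutation).

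Member lines were abundant in 5 of the 6 DNA-PKcs -/- libraries and few in the sixth. The CtIP A/A DNA-PKcs -/- libraries held 1305 of 4170 junctions in G2 replicate 1 (31.3%, 95% Wilson interval 29.9% to 32.7%), 583 of 2841 in G2 replicate 2 (20.5%, 19.1% to 22.05%) and 739 of 7068 in G1 (10.5%, 9.76% to 11.2%). The DNA-PKcs -/- libraries held 1201 of 3663 in G2 replicate 1 (32.8%, 31.3% to 34.3%), 7 of 2381 in G2 replicate 2 (0.294%, 0.142% to 0.606%) and 1794 of 5042 in G1 (35.6%, 34.3% to 36.9%). DNA-PKcs -/- G2 replicate 2 stood apart from its own group and lay below all 6 libraries with DNA-PKcs.

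In the libraries with DNA-PKcs, members were 0.600% to 7.85% of junctions. The CtIP A/A libraries held 42 of 535 in G2 replicate 1 (7.85%, 5.86% to 10.4%), 7 of 586 in G2 replicate 2 (1.19%, 0.580% to 2.44%) and 5 of 834 in G1 (0.600%, 0.256% to 1.40%). The wild type libraries held 37 of 535 in G2 replicate 1 (6.92%, 5.06% to 9.39%), 6 of 289 in G2 replicate 2 (2.08%, 0.955% to 4.45%) and 38 of 2993 in G1 (1.27%, 0.926% to 1.74%). Both G2 replicates numbered 1 were the high ones, and they shared a sequencing run, as told from the read names. In both genotypes without DNA-PKcs, G2 replicate 1 also had the higher share and came from that run. The shares there were 31.3% against 20.5% with CtIP A/A and 32.8% against 0.294% with wild-type CtIP. The Wilson intervals treat each line as an independent count. The reads carry no molecular identifiers, and many lines belong to the same event. As ranges for joins the intervals can therefore be too narrow, and they do not cover the spread between libraries.

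**Figure D1:**
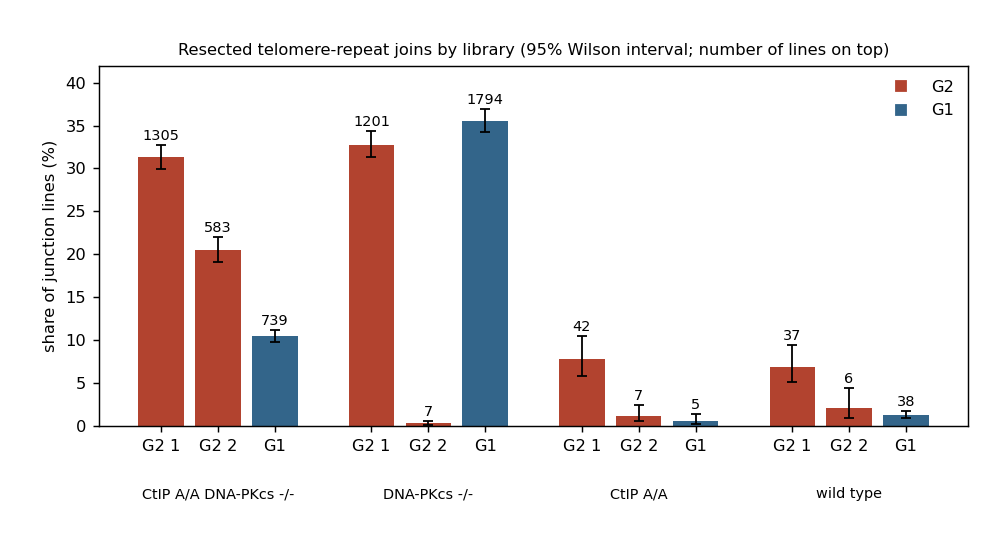
Resected telomere-repeat joins as a share of all junction lines (vertical axis, percent) in each of the 12 libraries, with the number of lines above each bar and the 95% Wilson interval as error bar; red bars are G2 and blue bars G1. 5 DNA-PKcs -/- libraries lie between 10.5% and 35.6%, and DNA-PKcs -/- G2 replicate 2 lies at 0.294%, below every library with DNA-PKcs. The error bars treat lines as independent counts.

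Of the 5764 member lines, 5629 (97.7%) came from DNA-PKcs -/- libraries, which also held 25165 of the 30937 junctions. Members were 21.8% ± 14.1 of junctions without DNA-PKcs and 3.32% ± 3.20 with it (SD, n = 6 libraries each). With each of the 4 combinations of CtIP genotype and phase as a stratum of equal weight, the shares averaged 22.1% and 2.72%, a difference of 19.4 points (p = 0.0417, adjusted p = 0.25, exact two-sided permutation within strata). The difference was positive in 4 of 4 strata, and the smallest p this design allows is 0.0139. It did not pass the threshold of 0.05 after Benjamini-Hochberg adjustment over 9 share tests. Within sequencing run 1 the difference was 24.7 points and within run 2 it was 15.4 points. With a bait loss over 100 bp required of members, it was 3.43 points (p = 0.361, exact permutation), and with over 20 bp it was 32.1 points (p = 0.0139, adjusted p = 0.0625, exact permutation).

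Counted as distinct events, the stratum means were 9.38% of events without DNA-PKcs and 1.67% with it (difference 7.71 points, p = 0.0556, adjusted p = 0.25, exact permutation). The number of distinct events depended on how many differing bases were tolerated. Tolerance merges reading errors but also arrays that differ in 2 bases. In wild type G2 replicate 1 it merged the variant-unit array at 142 bp with a regular array at that bait end. There were 1269 events counted by library with an exact match of the 12 bases, 488 with up to 2 differing bases tolerated, and 221 when each bait end of a library counted as 1 event. With 2 differing bases tolerated the difference in event share was 3.09 points (p = 0.0972, exact permutation), and by bait end alone it was 12.2 points (p = 0.0417, exact permutation).

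Among telomere-repeat events, the resected share ran from 1.47% to 70.1% without DNA-PKcs and from 35.3% to 71.4% with it. The ranges overlapped. Stratum means were 39.3% and 62.2%, a difference of -22.9 points (p = 0.111, adjusted p = 0.333, exact permutation), negative in 3 of 4 strata. The libraries without DNA-PKcs held 234 to 729 telomere-repeat events each, against 7 to 56 in the libraries with it, so single shares with DNA-PKcs are imprecise. Telomere-repeat lines numbered 14040 among 25165 junctions without DNA-PKcs and 211 among 5772 with it. Whether the member lines follow the number of telomere-repeat junctions or their resection was not tested.

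Bait loss over 50 bp in the other junction classes differed between the same libraries. Among substrate junctions it was 29.0% ± 10.8 without DNA-PKcs and 16.1% ± 2.87 with it (SD, n = 6 libraries each). Among genome junctions that did not meet the repeat criterion it was 44.99% ± 14.3 and 57.6% ± 23.2. DNA-PKcs -/- G2 replicate 2 had low values in both classes, 16.8% of substrate junctions and 26.1% of other genome junctions. DNA-PKcs -/- G2 replicate 1 had 39.8% and 54.2%. CtIP A/A DNA-PKcs -/- G2 replicate 2, with 20.5% members, had a substrate value as low (15.8%) and 36.7% of other genome junctions. DNA-PKcs -/- G2 replicate 2 nevertheless held 1383 telomere-repeat lines, 1376 of them near the coding end, with a median bait loss of 20 bp over its telomere-repeat events. Whether this library differs in cells or in preparation was not tested.

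The CtIP A/A allele was compared with wild-type CtIP within DNA-PKcs genotype and phase. Stratum means of the member share were 10.4% for the A/A allele and 14.5% for wild-type CtIP (difference -4.10 points, p = 0.597, adjusted p = 0.875, exact permutation). Lower values in CtIP A/A occurred in 2 of 4 strata. For the event share the difference was -2.06 points (p = 0.625, exact permutation) and for the resected share of telomere-repeat events it was -7.05 points (p = 0.681, exact permutation). Within run 1 and run 2 the member share differed by -0.279 and -1.61 points. In G1 without DNA-PKcs the CtIP A/A library had 10.5% and its counterpart 35.6%, and each group holds 1 library there.

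Arrest in G2 was compared with arrest in G1 within genotype. Stratum means of the member share were 12.9% in G2 and 11.98% in G1 (difference 0.890 points, p = 0.926, adjusted p = 0.926, exact permutation, smallest possible p = 0.0123). The event share differed by 0.258 points (p = 0.877, exact permutation) and the resected share of telomere-repeat events by -12.1 points (p = 0.407, exact permutation). The G1 libraries were all sequenced in run 2, and within that run the member share differed by -5.96 points. Members were thus found in cells held in either phase, and none of the 9 share tests passed the threshold.

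Few events held most member lines. With an exact match over all libraries there were 1127 events, of which 40 had 10 or more lines in at least 1 library and together held 3992 lines (69.3%). The 8 largest held 2152 lines (37.3%), and 830 events were single lines. In CtIP A/A DNA-PKcs -/- the largest event held 21.7% of member lines in G2 replicate 1, 48.2% in G2 replicate 2 and 49.8% in G1. In DNA-PKcs -/- it held 17.5% in G2 replicate 1 and 18.2% in G1. Events of 10 or more lines held 74.3%, 75.6% and 60.4% of member lines in the CtIP A/A DNA-PKcs -/- libraries (G2 replicates 1 and 2, then G1), and 71.5% and 67.9% in DNA-PKcs -/- G2 replicate 1 and G1.

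**Figure D2:**
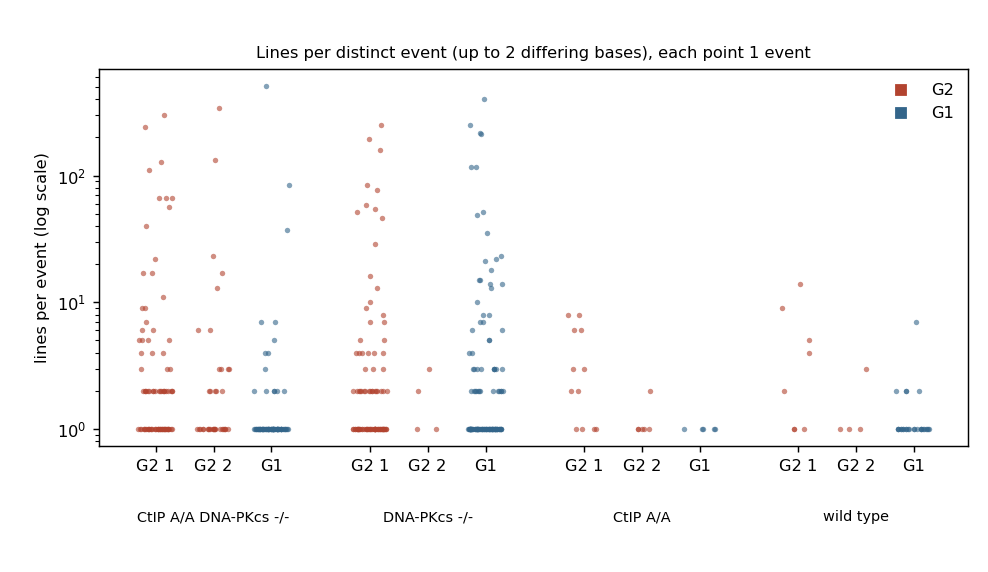
Lines per distinct event (vertical axis, log scale) by library, each point 1 event with up to 2 differing bases tolerated and red points G2, blue points G1. Events of 10 or more lines numbered 13, 5 and 3 in the CtIP A/A DNA-PKcs -/- libraries and 13, 0 and 19 in the DNA-PKcs -/- libraries, against 1 in all libraries with DNA-PKcs. The last, with 14 lines in wild type G2 replicate 1, merges the variant-unit array and a regular array at 142 bp.

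Single-line events cannot all be counted as independent joins. With 2 differing bases tolerated, 291 of 488 events were single lines, and 114 of these (39.2%) sat at a bait end where the same library had an event of 10 or more lines. In all, 159 events with fewer than 10 lines sat at such ends, with 272 lines between them. Whether they are separate joins or reading errors of the large event was not tested.

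Each of the 8 largest events was nearly confined to 1 library. The event with a bait loss of 51 bp, 384 lines in 5 libraries, had 51 lines in CtIP A/A DNA-PKcs -/- G2 replicate 1 and 5 in DNA-PKcs -/- G2 replicate 1, against 326 in DNA-PKcs -/- G1. The event at 56 bp had 368 of its 382 lines in CtIP A/A DNA-PKcs -/- G1. CtIP A/A DNA-PKcs -/- G2 replicate 1 alone held the event at 124 bp, with 283 lines, and that at 130 bp, with 210 lines. Over the 8 events, 79 of 2152 lines lay outside the main library, 58 of them in the event at 51 bp.

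The other 4 events followed the same pattern. The event at 81 bp had 281 of 282 lines in CtIP A/A DNA-PKcs -/- G2 replicate 2, and the event at 94 bp had 210 of 211 lines in DNA-PKcs -/- G2 replicate 1. DNA-PKcs -/- G1 held 202 of 205 lines of the event at 78 bp and 193 of 195 lines of that at 113 bp. The matching bases between the bait end and the repeat were 2 bp in the events at 51, 78 and 124 bp, 1 bp at 56 bp and 0 bp at 81, 94, 113 and 130 bp.

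**Figure D3:**
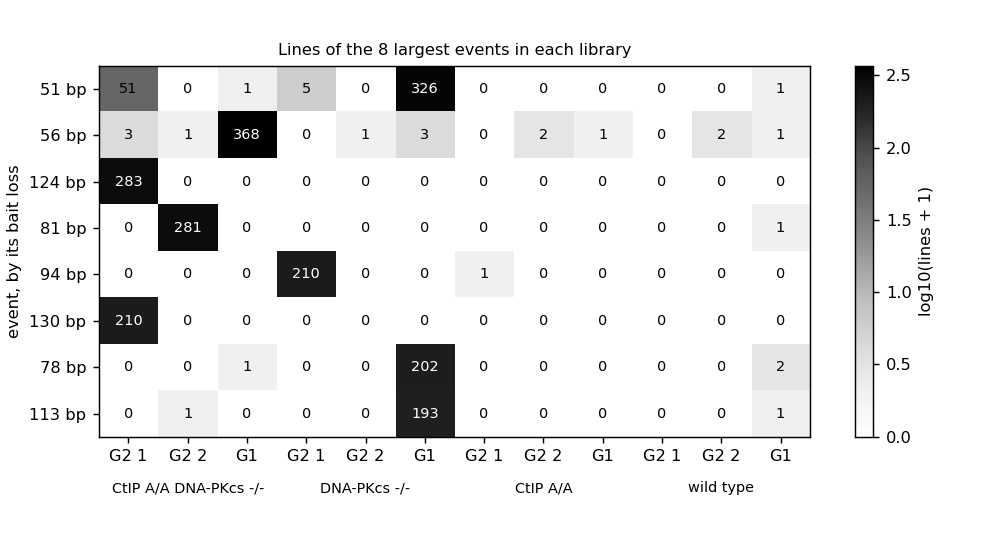
Number of lines of the 8 largest events (rows, named by bait loss in bp) in each of the 12 libraries (columns), shaded by log10(lines + 1). Each event has its lines almost all in 1 library, apart from that at 51 bp with 51 lines in CtIP A/A DNA-PKcs -/- G2 replicate 1 and 326 in DNA-PKcs -/- G1.

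Lines of 1 event differed in the length of the read. The deposited tables give a read length where the read is in 1 piece, measured from the nested primer to the far end of the molecule, and the DNA had been sonicated before amplification. Of 47 library events with 10 or more lines, 44 had 10 or more lines with a length. They held 10 to 95 distinct lengths each, and the median share of distinct lengths among lines was 71.4% (26.0% to 100%). The event at 56 bp had 95 lengths among 365 lines in its main library, and the event at 51 bp had 88 among 326. Lengths fell into all 6 classes modulo the 6-bp unit in 38 of the 44, so the spread was not in steps of whole repeats. Large events thus held many read lengths and were not 1 length repeated.

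**Figure D4:**
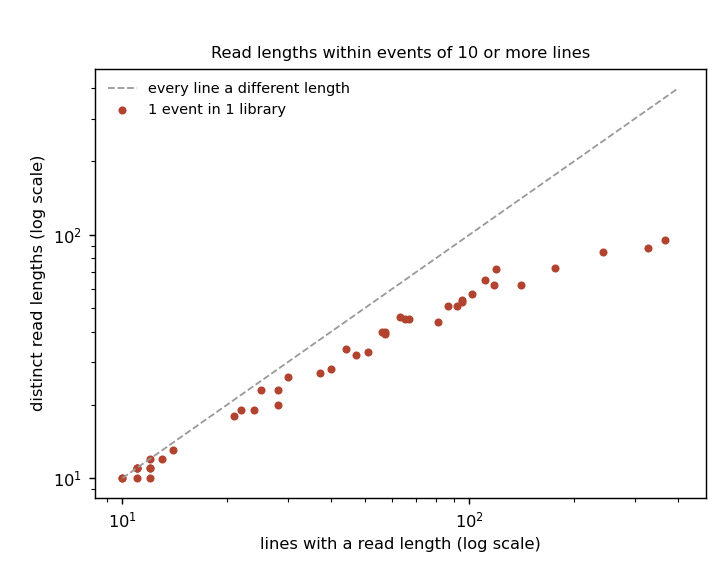
Distinct read lengths (vertical axis, log scale) against the number of lines with a length (horizontal axis, log scale) for the 44 library events with 10 or more such lines; the dashed line marks a different length for every line. Points lie near the line for small events and fall below it in the largest, which have 95 lengths among 365 lines and 88 among 326.

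Some events occurred in more than 1 library. Of 1127 exact events, 85 did, with 3043 lines. Of these, 7 had 10 or more lines in 2 libraries, and in 4 of the 7 the libraries had the same genotype. One at 51 bp had 57 lines in DNA-PKcs -/- G2 replicate 1 and 81 in DNA-PKcs -/- G1, one at 54 bp had 68 and 28, and another at 54 bp had 12 and 37. One at 58 bp had 49 lines in CtIP A/A DNA-PKcs -/- G2 replicate 1 and 57 in CtIP A/A DNA-PKcs -/- G1. These G2 and G1 libraries were sequenced in different runs. The other 3 joined libraries of different CtIP genotype, with 100 and 14 lines at 59 bp, 51 and 326 lines at 51 bp, and 16 and 39 lines at 82 bp, CtIP A/A DNA-PKcs -/- before DNA-PKcs -/- each time. In the repeat itself, a bait end and a frame can recur without a shared origin, and this was not tested. Sharing between libraries was not counted in the other junction classes, so these numbers do not show it as particular to members.

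The most widely shared event was that at 56 bp, found in 9 libraries. Beside its 368 lines in CtIP A/A DNA-PKcs -/- G1 it had 3 and 1 lines in the G2 libraries of that genotype, 0, 1 and 3 in DNA-PKcs -/- (G2 replicates 1 and 2, then G1), 0, 2 and 1 in CtIP A/A and 0, 2 and 1 in wild type. Over the first 36 bases, 268 of 379 lines long enough matched the consensus within 2 bases, and they came from 8 libraries of 4 genotypes.

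Events with a recognisable sequence were shared too. The interrupted array at 110 bp had 19 lines in 8 libraries, 1 to 5 in each, and 9 lines in 6 libraries matched its 36-base consensus within 2 bases. The array at 124 bp with a changed unit had 19 lines in 8 libraries, 7 of them in CtIP A/A DNA-PKcs -/- G2 replicate 1, and 7 lines in 5 libraries matched the consensus. The event at 54 bp with 13 bases ahead of the array had 20 lines in 6 libraries, 11 of them in DNA-PKcs -/- G1, and 13 lines in all 6 matched. An uninterrupted array at 110 bp had 18 lines in 8 libraries. These recurrent events were small, and each spanned both sequencing runs.

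The 135 member lines of the libraries with DNA-PKcs largely belonged to events seen elsewhere. Of these, 94 lines belonged to events also found in another library, and 19 (14.1%) to events at least 10 times larger in another library. All 19 had such a larger counterpart within the same sequencing run. The DNA-PKcs -/- libraries had 2949 of 5629 lines in shared events and 28 (0.497%) in events at least 10 times larger elsewhere. Most of their lines lay in large events, which can hardly have a counterpart 10 times larger. These percentages therefore do not compare the groups. In wild type G1, 12 of 38 lines were of this kind. With such lines left out, wild type G1 had 26 lines (0.872%) and wild type G2 replicate 2 had 3 of its 6. The difference between DNA-PKcs groups was then 19.6 points (p = 0.0417, exact permutation). Whether lines passed between libraries during sequencing was not tested, and sharing in the other junction classes of these libraries was not counted.

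The exact events of the libraries with DNA-PKcs had 8 lines or fewer in any 1 of these libraries. The offset array at 125 bp had 3 lines in CtIP A/A DNA-PKcs -/- G2 replicate 1 and 1 in CtIP A/A DNA-PKcs -/- G1, against 8 in CtIP A/A G2 replicate 1. The variant-unit array at 142 bp had 1 line in DNA-PKcs -/- G2 replicate 1 and 7 in wild type G2 replicate 1. A regular array at the same bait end had 1 line in DNA-PKcs -/- G2 replicate 1, 1 in CtIP A/A G2 replicate 1 and 6 in wild type G2 replicate 1. Median bait losses over the events of a library were 55 to 83.5 bp without DNA-PKcs and 54.5 to 124.5 bp with it, and the ranges overlapped. With DNA-PKcs, wild type G2 replicate 2 was lowest and the others lay at 81.5 bp or more. Without it, CtIP A/A DNA-PKcs -/- G2 replicate 2 was highest and the others lay at 66.5 bp or less. The medians rest on 4 to 122 events without DNA-PKcs and 4 to 28 with it, and their difference was not tested.

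The bait loss, on which members were chosen, ran from 51 bp to 149 bp, where 30 bait bases were left for the aligner. The largest loss was 149 bp in other resected genome joins and in resected substrate joins too. Just inside the threshold, 801 telomere-repeat lines had lost 51 bp and 1340 had lost 51 to 55 bp. Just outside it, 377 had lost 50 bp and 569 had lost 46 to 50 bp. The threshold thus runs through a dense stretch of bait ends. At the repeat threshold, 608 members had exactly 3 units, and 503 genome lines with the same bait loss had 2.

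Member events were unevenly spread over bait ends. The 488 member events used 77 of the 99 possible ends, while the 2330 other resected genome events and the 2226 resected substrate events, both more numerous, used all 99. Of 488 events with 2 differing bases tolerated, 203 lay at 51 to 60 bp. The ends with most events were at losses of 56 bp (38 events in 10 libraries), 54 bp (34 events in 6), 51 bp (31 in 8) and 59 bp (22 in 5), followed by 57, 58 and 124 bp (18 each) and 110 bp (17 in 10). Together these 8 ends held 40.2% of member events, 12.3% of other resected genome events and 12.2% of resected substrate events. The ends were picked for their member events, so the first share is a description, and small events beside large ones add to it.

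**Figure D5:**
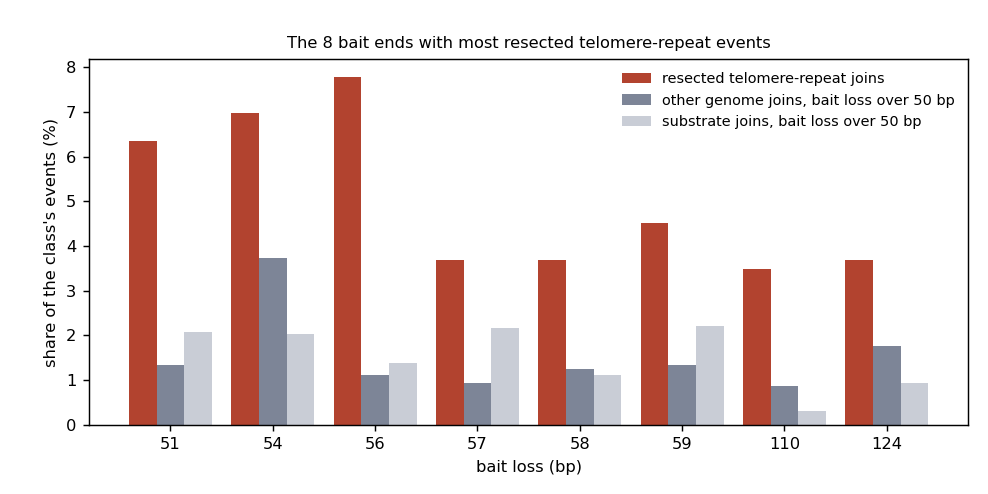
Share of events (vertical axis, percent of the class) at the 8 bait ends with most resected telomere-repeat events, by bait loss in bp (horizontal axis), in resected telomere-repeat joins, other resected genome joins and resected substrate joins. The 8 ends hold 40.2% of the resected telomere-repeat events, against 12.3% and 12.2% of the other classes.

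The median bait loss of member events was 71.5 bp, against 117 bp in other resected genome events and 88 bp in resected substrate events. These medians pool events over all libraries, and 425 of the 488 member events came from DNA-PKcs -/- libraries. The classes were not compared within libraries. By library, the middle quartiles of CtIP A/A DNA-PKcs -/- were 57 to 125 bp in G2 replicate 1, 81.3 to 89.5 bp in G2 replicate 2 and 56 to 72 bp in G1. Those of DNA-PKcs -/- were 54 to 96.5 bp in G2 replicate 1 and 54 to 107 bp in G1. The narrow range in CtIP A/A DNA-PKcs -/- G2 replicate 2 goes with 27 of its 38 events at 81 to 90 bp, where its 2 largest events lay.

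Where arrays stop was not measured, and units beyond the end of a read are not seen. Members had a median of 7 exact units (quartiles 5 and 9), and so did near-end telomere joins. The longest had 54 units within 420 prey bases, in CtIP A/A DNA-PKcs -/- G2 replicate 2 at a bait loss of 81 bp. The share of member lines with 10 or more units was 27.4%, 12.3% and 22.2% in the CtIP A/A DNA-PKcs -/- libraries (G2 replicates 1 and 2, then G1), and 22.5% and 16.8% in DNA-PKcs -/- G2 replicate 1 and G1. The 15 G-rich lines had a median of 6 units.

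Junction structure was read from the deposited alignments as bases shared between bait and prey (microhomology), bases between them (insertion) or neither (direct). Against near-end telomere joins, 6 libraries had 10 or more exact events in both classes. Microhomology made up 38.8% ± 10.9 of member events and 32.8% ± 5.50 of near-end events (SD, n = 6, higher in 5 of 6 libraries, p = 0.0938, adjusted p = 0.211, exact sign-flip permutation). Insertions made up 43.0% and 45.98% (adjusted p = 0.781) and direct joins 18.2% and 21.3% (adjusted p = 0.683, exact permutation, n = 6). For these 5 measures no adjusted p lay below the threshold, and the smallest p with 6 libraries is 0.0313. Without wild type G1 the microhomology difference of 6.06 points was 2.71 points, and without CtIP A/A DNA-PKcs -/- G1 the direct-join difference of -3.04 points was -0.0037 points.

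Against other resected genome joins, 8 libraries could be compared. Microhomology made up 42.4% ± 11.4 of member events and 56.5% ± 9.85 of the others (SD, n = 8, lower in 7 of 8 libraries, p = 0.0313, adjusted p = 0.141, exact sign-flip permutation). Insertions made up 40.9% and 32.8% (higher in 6 of 8, adjusted p = 0.309) and direct joins 16.7% and 10.7% (higher in 7 of 8, adjusted p = 0.211, exact permutation, n = 8). Events seen in more than 1 line were 28.4% ± 15.4 of member events and 6.01% ± 1.80 of the others, higher in 8 of 8 libraries. That difference of 22.4 points had p = 0.0078, the smallest that 8 libraries allow, and an adjusted p of 0.0703 (exact sign-flip permutation). The repeat criterion itself favours this measure in members, since separate joins to repeat at the same bait end can share the bases that define an event. The test cannot tell such joins from repeated lines of a single join, so no conclusion is drawn from it or from its alternatives. Against near-end telomere joins the same measure was 21.4% in members and 24.1% in the near-end events (higher in 3 of 6 libraries, adjusted p = 0.781, exact sign-flip permutation, n = 6). The difference from other resected genome joins passed the threshold with libraries of 5 or more events included (17.6 points, adjusted p = 0.0132, exact permutation), and over all alternatives the adjusted p ran from 0.0132 to 0.773. With events counted by bait end alone it was -3.45 points (p = 0.688, exact permutation).

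Alignments to a repeat can start inside the array, so structure was also read from the array itself, taken to begin at the first 8 uninterrupted repeat bases. Of 488 member events 481 could be classified. The repeat shared bases with the bait end in 118 (24.5%), abutted it in 76 (15.8%) and followed other bases in 287 (59.7%). By the alignments the same events had 37.1% homology, 17.2% direct joins and 45.7% insertions. Homology was 1 bp in 44 events, 2 bp in 58 and 3 bp in 16, and never longer. Other bases ahead of the array had a median of 6 bp and reached 28 bp. In near-end telomere joins, 19.5% had homology, 26.0% were direct and 54.5% had other bases first. The limit of 3 bp holds only for events whose first 8 bases after the bait were plain repeat. A changed or misread base there turns homology into other bases, and variant units count as other bases too. By this scoring the event at 142 bp with a run of a variant unit had 24 bases ahead of the array.

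Where the repeat ran from the bait end through all 12 bases, its frame was spread over the hexamer. Starting from the frame that opens with a whole unit, the 6 frames had 30, 20, 20, 21, 26 and 25 member events. A further 346 events had a base other than the repeat in the 12. Joins thus occurred at each of the 6 frames.

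Aligned positions do not place these joins. Member lines aligned to 3562 distinct positions on 22 reference sequences of mm10, and 98.1% of lines had 3 or more units in the reference at their interval. Chromosome 9 took 496 lines (8.61%), chromosome 2 464, chromosome 13 423, chromosome X 395 and chromosome 1 363. The fullest 1-kb window, on mm10 at chr9:113261001-113262000, held 233 lines (4.04%) of 119 exact events from 8 libraries and overlaps no annotated gene in GENCODE M21. Only 744 lines (12.9%) aligned within 10 kb of the first or last sequenced base of a chromosome. The lines of single events were scattered likewise, since the 382 lines of the event at 56 bp aligned to 349 positions on 21 reference sequences and the 384 lines of that at 51 bp to 338 positions on 22. Counted by aligned position, 1 event would thus be listed as many junctions.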

How the data were processed

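Per the labels' protocols, sonicated genomic DNA was linearly amplified from a biotinylated bait primer, amplified with a nested primer, and cut with BstBI to remove germline substrate. The pMX-INV sequence was appended to mm10 for the alignment. Bowtie2 is named in the submitters' processing notes. Versions, the junction caller, its filters and its handling of duplicates are not given in the sources used here. Per the file headers, the deposited tables give 1 junction per line with base positions of bait and prey, the read sequence and the read length, with no normalization. The 6 libraries with I-PpoI breaks are not analysed here. The sequences of some events are not reported here.

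The members and lists were chosen with earlier results of these data known. The bait coding end was set at the base beside the recombination signal heptamer, found in the reads, at substrate position 1943, and bait loss is the distance from it. Depth ran from 289 to 7068 junctions per library. Shares carry 95% Wilson intervals, and a count of 0 would allow up to 3 counts. Share tests permuted labels exactly within 4 strata (144, 144 and 81 arrangements) and paired tests flipped signs over libraries with at least 10 events in both classes, both two-sided. Each family of 9 p values was adjusted by the Benjamini-Hochberg method. Events named are the 8 with most lines, up to 6 found in most libraries, and the 6 with most lines in libraries with DNA-PKcs, and chromosomes are the 5 with most lines. Tolerated differences, longer keys, other thresholds, left-out libraries, runs, thinning to the smallest library and other denominators were tried as alternatives. Functions were tested on simulated data. Computations used Python 3.11.15, numpy 2.4.6, pandas 2.3.3, scipy 1.17.1 and matplotlib 3.10.9.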

Additional observations from a re-analysis of the deposited data

Results flagged for a closer look

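The G2 minus G1 difference in member line share had opposite signs between genotypes, with every G2 library on 1 side of its G1 library. It was 15.5 points in CtIP A/A DNA-PKcs -/-, 3.92 points in CtIP A/A and 3.23 points in wild type, against -19.0 points in DNA-PKcs -/-. The last value rests mainly on 1 library: with DNA-PKcs -/- G2 replicate 1 alone it was -2.79 points, and with replicate 2 alone -35.3 points. The event share showed the same split, with 5.77, 1.74 and 1.27 points in those 3 genotypes and -7.75 points in DNA-PKcs -/-, where replicate 1 alone gave -0.766 points. For the resected share of telomere-repeat events the differences were 12.2 points in CtIP A/A DNA-PKcs -/- and 8.04 points in wild type, against -48.9 points in DNA-PKcs -/- (-29.2 points with replicate 1 alone) and -19.8 points in CtIP A/A. Each rests on 2 G2 libraries and 1 G1 library, and these differences between genotypes were not tested.

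The resected share of telomere-repeat events also differed in sign by stratum in the genotype comparisons. DNA-PKcs -/- minus DNA-PKcs present was 11.2 points in G1 with wild-type CtIP, against -44.6 points in G1 with CtIP A/A and -45.8 points in G2 with wild-type CtIP. CtIP A/A minus wild-type CtIP was -43.3 points in G1 without DNA-PKcs and 12.5 points in G1 with it. These contrasts were not tested either, and the G1 strata hold 1 library on each side.

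Among the 6 libraries with DNA-PKcs, CtIP A/A G2 replicate 2 had the lowest resected share of telomere-repeat events, 35.3%, and lay far below the other 5. It rests on 17 events. Chance sets about 1 in 20 groups apart by this measure.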

How the results depend on the processing

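Over 399 recomputed values for 18 results, 359 kept direction and side of the threshold, 38 changed sign and 2 passed the threshold. All 84 values for the DNA-PKcs comparison kept their sign. Left-out libraries moved its differences over 14.4 to 23.5 points for line share, 5.63 to 9.45 for event share and -34.3 to -15.7 for resected share. With a bait loss over 20 bp line and event share differed by 32.1 and 13.9 points and resected share by -9.87 points. With a bait loss over 100 bp line and event share differed by 3.43 and 0.857 points, with 2 differing bases tolerated event share differed by 3.09 points, and by bait end alone by 12.2 points. Against other resected genome joins, the share of events in more than 1 line passed at a bait loss over 20 bp (21.5 points). It passed also with libraries of 5 or more events (17.6 points). By bait end alone, where single lines merge by construction, it changed sign (-3.45 points). The repeat criterion itself favours this measure in members.

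The sign changes concerned differences that had not passed. Left-out libraries moved the CtIP differences over -8.16 to 2.91 points (line share), -3.81 to 0.765 (event share) and -13.6 to 5.01 (resected share), positive without either DNA-PKcs -/- G1 library of the 2 CtIP genotypes. The phase differences moved over -3.96 to 7.53, -1.58 to 2.93 and -20.2 to 0.148 points. Other sign changes for phase were an event share of -0.147 with 2 repeat units, -0.293 after thinning and -2.58 by bait end, and within run 2 line and event shares of -5.96 and -3.12. For CtIP the resected share was 5.64 at a bait loss over 100 bp and 0.575 by bait end, and the event share was 0.559 within run 1. Against near-end joins, left-out libraries moved homology over 2.71 to 8.36, direct joins over -5.15 to -0.0037, insertion over -5.95 to 1.97, multiple lines over -4.42 to 1.53 and C-rich share over -0.0773 to 1.96 points. At a bait loss over 20 bp insertion, homology and C-rich share were 1.10, -0.579 and -0.139. At over 100 bp multiple lines and C-rich share were 5.20 and -3.28, with 2 units multiple lines were 4.63, by bait end these 2 measures were 1.89 and -0.771, and insertion read from the array was 2.11. Counting by bait end, reading the array and leaving out shared or largest events were chosen after seeing the data. The causes were not tested.

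G2 replicate numbers coincide with sequencing runs, and with only 2 numbers they were not shown to pair libraries. With the replicate block the DNA-PKcs line share difference stayed 19.4 points (p = 0.0625, exact permutation), and the block changed no call. Few member events limit the precision in DNA-PKcs -/- G2 replicate 2 (4 events) and in the libraries with DNA-PKcs (4 to 28).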
